A study of Mus musculus with 8 samples.

Results

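Control liver that was regenerating after surgery is described here from 4 samples, of 8 in the whole series, chosen by their label shNC-D2 and by no measured value. The animals were C57BL/6J mice given shNC, a control short hairpin RNA, by an adeno-associated virus aimed at hepatocytes. After 4 weeks the mice underwent 2/3 partial hepatectomy, in which surgery takes out the larger share of the liver, and liver was collected at day 2. The samples are called shNC 1 to 4 after their replicate numbers. Whether each came from its own mouse is not stated, so the spread given here may be partly technical. No unoperated liver and no other day were analysed here, so a level cannot be called raised or lowered by the surgery.

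After partial hepatectomy the remaining hepatocytes, which are normally at rest, enter the cell cycle, copy their DNA and divide. Hepatocyte growth factor and ligands of the epidermal growth factor receptor are the best known mitogens, and cyclin D1 is the best known marker of entry into the cycle. During regrowth the liver still has to make the plasma proteins, clear ammonia and supply glucose. RNA of whole tissue holds all of these programs mixed with those of macrophages, endothelial cells, stellate cells and blood, and in such bulk samples fewer cells of a type and less RNA per cell cannot be told apart.

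The samples held 25811763 to 27537235 expected counts, and 11791 to 12192 genes had at least 1 TPM. TPM (transcripts per 1000000) divides counts by gene length and sets each sample to the same total. In shNC 1 to 4, the most abundant 67, 87, 110 and 95 genes together reached 50% of all TPM. Mitochondrially encoded genes took 15.8, 12.1, 11.2 and 12.3% of TPM, highest in shNC 1. In TPM, where every sample sums to the same total, 50.9% of the 12058 genes with a mean of at least 1 TPM were lowest in shNC 1 and 41.4% were highest in shNC 3. Scaling by the trimmed mean of M-values (TMM) multiplied the TPM of shNC 1 to 4 by 1.11, 0.9903, 0.931 and 0.977, a shift of 0.15, -0.01, -0.10 and -0.03 on the log2 scale, and brought those shares to 27.3% and 26.2%. Levels below are deposited TPM, and statements on which sample was highest or lowest for a list use TMM-scaled values.

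Albumin was the most abundant nuclear transcript in every sample. Alb, which encodes the main plasma protein, had 34369, 36989.8, 28751 and 35746 TPM in shNC 1 to 4, or 33964 ± 3636 TPM (SD, n = 4), and it also ranked first by counts. Trf, which encodes the iron carrier transferrin, had 16753, 15619.5, 14131 and 13946 TPM. Hpx, which encodes the heme scavenger hemopexin, had 10249, 15911, 7650.3 and 12342 TPM, a 2.08-fold range with shNC 3 lowest and shNC 2 highest, while Alb ranged 1.29-fold. The apolipoprotein genes Apoe, Apoa2, Apoa1 and Apoc1, whose products coat lipoprotein particles, had means of 14914, 13235, 11232 and 10691 TPM. Of the top 25 genes by mean TPM, 12 were on a list of secreted proteins, 8 were mitochondrially encoded and 3 were annotated pseudogenes. Among them Fabp1, a fatty acid carrier of the cytosol (9376, 6329.9, 7101 and 8464 TPM), and Gstp1, a glutathione S-transferase (7312, 7896, 6735 and 6549 TPM), were neither secreted nor mitochondrial.

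The order within the top 25 was loose, and 19 of those genes were in the top 25 of all 4 samples. Only 3 of the 24 neighbouring pairs had the same order in all 4, and only Alb and mt-Co1 had ranges that did not overlap. The first rank by TPM went to mt-Atp8, a subunit of ATP synthase, at 43632, 37205, 31659.8 and 40414 TPM, but its effective length, the number of start positions a fragment can have, was 9.67, 10.7, 8.42 and 10.6 bases. It had 10082, 9386, 5857 and 9547 counts and ranked 381 by mean count, so its TPM depends on a length estimate of a few bases. By contrast mt-Co1, a subunit of cytochrome c oxidase, was rank 3 on the TPM scale and rank 3 by counts, with 18994, 16578, 16847 and 15645 TPM. The pseudogenes Gm28661, Gm28437 and Gm10925 had means of 10965, 10935 and 7120.4 TPM. Fragments shared with near-identical copies are divided by likelihood, so the values of such genes are uncertain.

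**Figure D1:**
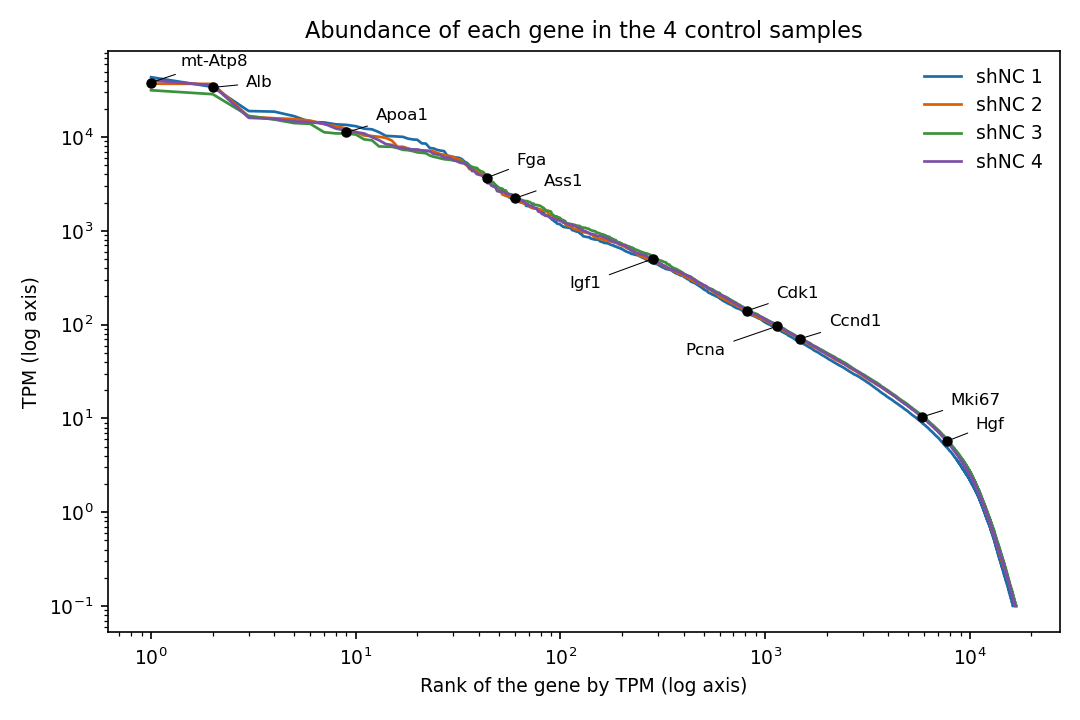
TPM of each gene (vertical, log axis) against its rank (horizontal, log axis), 1 line per sample, for genes of at least 0.1 TPM. Points mark 11 named genes at their mean TPM and the rank of that mean. The 4 lines nearly coincide, from Alb at rank 2 to Hgf, hepatocyte growth factor, at rank 7698.

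Genes of secreted proteins made up 28.1% of TPM on average. Their combined share had a 1.09-fold range, against 1.10-fold for apolipoproteins, the narrowest single list, and 2.25-fold for major urinary proteins. After TMM scaling the combined range was 1.23-fold, above those of apolipoproteins (1.19) and complement (1.20) and below those of the other lists. The 8 secreted lists together held 28.05, 29.7, 27.3 and 27.5% of TPM in shNC 1 to 4 (28.1 ± 1.11%, SD, n = 4). Plasma carriers gave 10, 10.9, 8.56 and 10.2%, apolipoproteins 6.68, 6.29, 6.71 and 6.93% and protease inhibitors 5.05, 5.45, 4.59 and 4.69%. In shNC 3 most carriers and inhibitors were low: 13 of 16 carriers, 19 of 24 inhibitors, 14 of 22 complement genes and 12 of 20 coagulation genes had their lowest TMM-scaled level there, where 30.7% of all genes did. A 2-fold range between samples, on the scale of TPM plus 1, was seen for 34 of 155 secreted genes of at least 1 TPM, against 8.87% of all such genes, and 14 of these were in the major urinary proteins.

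Short stretches before the start sites of 3 secreted genes are shown because they hold the half-site letters of the hepatocyte factor HNF1, GTTAAT, or ATTAAC on the other strand, in capitals. Sequences are from RefSeq on GRCm38.p6 and end at the base before the RefSeq start.
Alb, chr5:90460790-90460869, plus strand: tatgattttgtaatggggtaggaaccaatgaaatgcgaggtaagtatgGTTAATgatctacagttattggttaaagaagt
Gc, chr5:89457899-89457978, minus strand: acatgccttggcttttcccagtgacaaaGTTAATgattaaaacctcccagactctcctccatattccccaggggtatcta
Fgb, chr3:83049864-83049963, minus strand: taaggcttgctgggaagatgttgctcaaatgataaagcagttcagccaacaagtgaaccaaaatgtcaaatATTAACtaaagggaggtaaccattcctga
In windows from 250 bases before to 50 bases after the start, these letters were found on either strand for 32 of 118 secreted genes (27.1%), against 4.31% of 8614 genes with at least 1 TPM and 6.33% of 18999 genes in all. The lists were uneven: the letters were found for 5 of 12 plasma carriers and 7 of 18 coagulation genes. They were found for 1 of 11 apolipoproteins, 0 of 12 acute phase genes and 0 of 12 major urinary protein genes. A match is a description of letters, not a bound site.

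The fibrinogen chains differed between samples together. Fga had 2923, 4518, 4444 and 2973 TPM, Fgb 1360, 2012, 1889.8 and 1333 TPM and Fgg 3059, 4519, 4248 and 3062 TPM, all 3 higher in shNC 2 and shNC 3 than in shNC 1 and shNC 4. The ratio of Fga to Fgb was 2.15, 2.25, 2.35 and 2.23. Plg, which encodes the clot-dissolving enzyme precursor plasminogen, had 829, 918, 746 and 841 TPM. Of the complement genes, C3, the central component, had 1711, 2634, 2324 and 2349 TPM, and Cfb, factor B of the alternative pathway, had 686, 700.2, 674 and 697 TPM with an SD of 0.02 on the scale of log2(TPM + 1). Mbl2, a lectin that starts complement activation, was the most variable of the list at 482, 369, 190.4 and 474 TPM, lowest in shNC 3.

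Acute phase genes were abundant. Saa1 and Saa2, serum amyloid A genes, had 4348, 7159.8, 4707 and 5589 TPM (Saa1) and 3944, 7284, 5568 and 6002 TPM (Saa2), both highest in shNC 2. Orm1, which encodes the carrier orosomucoid, had 4034, 6147, 5395 and 4347 TPM, and its relative Orm3 had 3.51, 5.29, 27.4 and 3.25 TPM, with shNC 3 far above the others. Hamp, which encodes hepcidin, the hormone that restrains iron export, had 4122, 1596, 1316 and 2115 TPM, highest in shNC 1. The values of Saa1, Saa2, Orm1 and Orm3 are uncertain because close paralogs share fragments. Serpina3n, a protease inhibitor and acute phase gene, had 530, 810.4, 379 and 453 TPM. Serpind1, heparin cofactor II, was the steadiest protease inhibitor, meaning the smallest SD of log2(TPM + 1) without TMM scaling, at 306, 307, 298 and 292 TPM.

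Major urinary proteins, pheromone carriers that male mice make in the liver, differed more between the samples than any other secreted list. Together they held 2.15, 1.64, 2.604 and 1.16% of TPM in shNC 1 to 4. A 2-fold range was seen for 14 of 18 genes, against 8.87% of all genes, for 13 with shNC 3 left out and for 8 with shNC 4 left out. Of 18 genes with at least 1 TPM, 14 were highest in shNC 3, where 26.2% of all genes were, and 16 were lowest in shNC 4, where 18.1% were. Mup15 had 441, 484, 1451 and 89.6 TPM, Mup7 2019.6, 1751, 3846 and 549.8 TPM and Mup20 5309, 4080, 7269 and 2441 TPM, each highest in shNC 3 and lowest in shNC 4. Mup3 differed from them, with 8543, 5675, 5931 and 6068 TPM and shNC 1 highest. These genes are near copies of each other, so levels of single members are uncertain while the sum is less so. In all 4 samples the Y-linked genes Ddx3y (12.6, 16.6, 14.2 and 15.95 TPM) and Eif2s3y (23.9, 26.4, 24.03 and 24.1 TPM) were present and Xist, which is made from the inactive X of females, reached at most 0.01 TPM. Elovl3, a fatty acid elongase with higher expression in males, had 110.1, 65.7, 327 and 163 TPM and was highest in shNC 3. Cyp2b9, a female-biased monooxygenase gene, had 12.9, 8.35, 3.26 and 18.8 TPM and was lowest there. Slco1a1, an uptake transporter with male bias, went the other way, lowest in shNC 3 and highest in shNC 4. Of 11 sex-linked and sex-biased genes with at least 1 TPM, 4 were highest and 4 lowest in shNC 3 on the TMM scale. That count takes no account of the direction of bias, so it cannot show whether these genes shifted together.

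Hepatokine genes ranged from near-constant to widely spread. Igf1, insulin-like growth factor 1, had 509.5, 495, 506 and 506 TPM, and Igfbp4, which binds it, 569, 575, 713 and 706 TPM. Igfbp1, a binding protein that responds to insulin and stress, had 35.8, 113, 479 and 130.3 TPM, a 13.03-fold range on the TPM plus 1 scale, which was 4.22-fold without shNC 1 and 3.57-fold without shNC 3. Fgf21, a hormone of fasting and stress, had 0.94, 0.23, 11.6 and 3.63 TPM. Apoa4, an apolipoprotein known to respond to fasting, had 285, 295, 2705 and 300 TPM, with shNC 3 far above the other 3. Igfbp1, Fgf21 and Apoa4 were all highest in shNC 3.

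**Figure D2:**
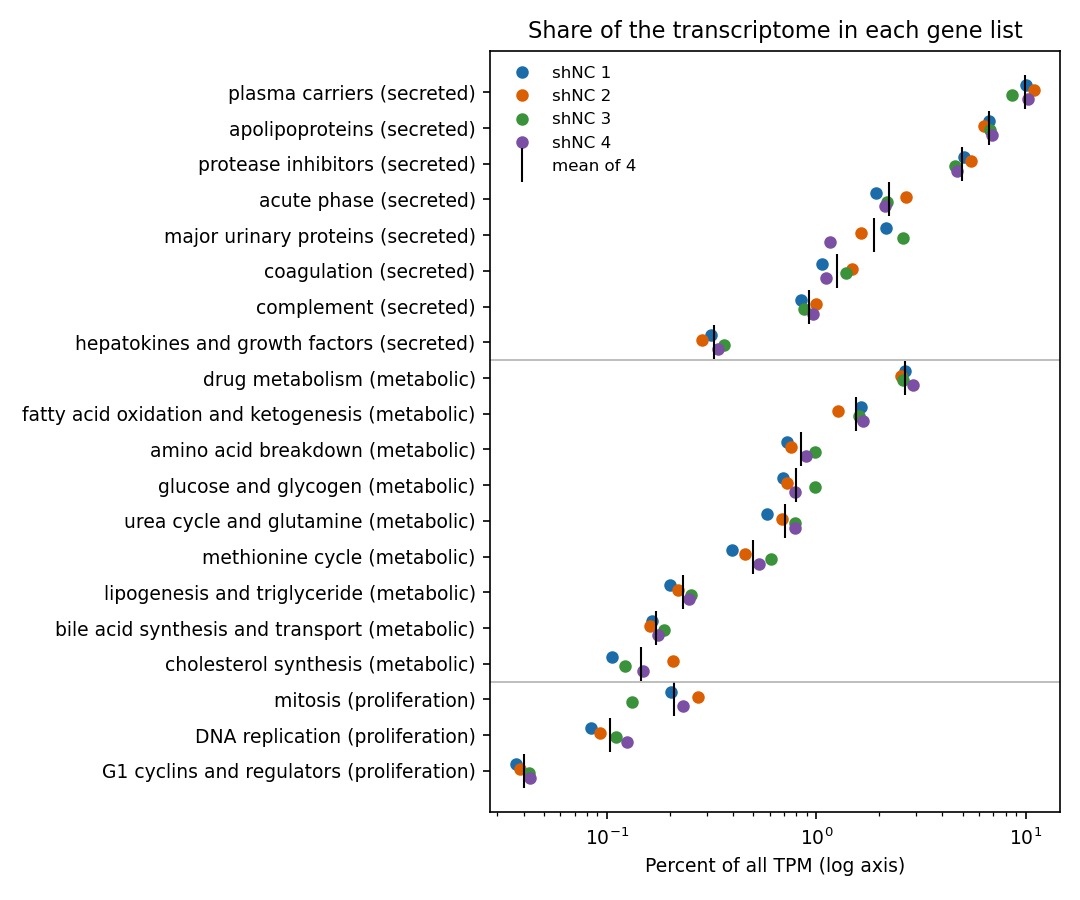
Percent of all TPM (horizontal, log axis) held by each secreted, metabolic and proliferation list, with 1 point per sample and a bar at the mean of 4. Plasma carriers lie between 8.56% and 10.9%, and the points spread most for major urinary proteins, mitosis and cholesterol synthesis.

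Metabolic enzymes held 7.14, 7, 8.12 and 8.13% of TPM in shNC 1 to 4 (7.598 ± 0.61%, SD, n = 4) over 226 genes, and drug metabolism was the largest metabolic list at 2.66 ± 0.153%. The urea cycle genes Ass1 and Cps1, which handle ammonia in periportal hepatocytes, had 1849.6, 2302, 2191 and 2595 TPM (Ass1) and 548, 698, 1010.2 and 773 TPM (Cps1), and Arg1, which releases urea, had 879.6, 1306, 1082 and 1461 TPM. Cps1 and Arg1 were lowest in shNC 1 on both scales, and Ass1 was lowest in shNC 1 in TPM but in shNC 3 after TMM scaling. Glul, glutamine synthetase of pericentral hepatocytes, had 405, 325, 408 and 374 TPM, and Axin2, a Wnt target, 2.81, 2.88, 2.97 and 3.32 TPM.

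Genes of glucose metabolism and of amino acid breakdown differed in their highest sample. On the TMM scale 10 of 21 and 12 of 41 were highest in shNC 3, where 26.2% of all genes were. In shNC 4, where 18.8% were, 2 and 13 were highest. Lowest levels fell in shNC 2 for 12 of 21 and 21 of 41, where 23.9% of all genes were lowest. In shNC 4, where 18.1% of all genes were lowest, 2 and 0 were. Pck1, which commits carbon to glucose, had 797, 823, 1602 and 1334 TPM, and G6pc, which releases free glucose, had 188, 182, 339 and 187 TPM, with only shNC 3 apart. Gapdh, a glycolytic enzyme often used as a reference, had 1467, 1726, 2712 and 1599 TPM and was highest in shNC 3, while Pygl, glycogen phosphorylase, had 113, 119, 113 and 120.2 TPM. Tat, tyrosine aminotransferase, had 565, 702, 1028 and 854 TPM, and Hpd, the next enzyme of tyrosine breakdown, 761, 742, 1131 and 887 TPM. In the methionine cycle, Mat1a, which makes the methyl donor S-adenosylmethionine, had 417, 443, 946 and 825 TPM and Cbs, which opens the route to cysteine, 334, 631, 946 and 754 TPM, lowest in shNC 1. Bhmt and Gnmt of the same cycle had 982, 1099, 1647 and 887 TPM (Bhmt) and 1068, 1225, 1091 and 1452 TPM (Gnmt), whose orders differ from each other.

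Fatty acid oxidation was low in shNC 2. Of 31 genes, 26 had their lowest TMM-scaled level in shNC 2, where 23.9% of all genes did. So did 99 of all 224 metabolic genes of at least 1 TPM, these 31 among them. Median log2 deviations of the 31 genes, on the TMM scale, were 0.02, -0.29, 0.11 and 0.10 in shNC 1 to 4. The list held 1.63, 1.26, 1.602 and 1.67% of TPM, a sum in which the most abundant members weigh most. Fabp1, the most abundant of the metabolic genes, was itself lowest in shNC 2. Whether this share sets shNC 2 apart without the most abundant members was not tested. Cpt1a, which admits fatty acids to mitochondria, had 95.97, 95.1, 116 and 133 TPM. Cyp4a14, a fatty acid hydroxylase regulated by PPARα, had 246, 141, 527 and 491 TPM and was the least steady member, and Hadh, a dehydrogenase of the cycle, the steadiest at 239, 242, 223 and 248 TPM. Among genes of lipid synthesis and storage, Plin2, which coats lipid droplets, had 453, 449, 694 and 569.6 TPM, Fads2, a desaturase, 218, 251, 201 and 308 TPM, and Lpin1, a phosphatidate phosphatase, 1.2, 3.59, 13.1 and 13.9 TPM.

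Cholesterol synthesis was the metabolic list with the widest range. It held 0.106, 0.207, 0.122 and 0.149% of TPM, and 18 of 20 genes were highest in shNC 2, where 25.9% of all genes were, while 13 were lowest in shNC 1, where 27.3% were. Hmgcs1, which makes the precursor of mevalonate, had 41.3, 154, 63.3 and 79.5 TPM, Fdps 82.98, 228, 126 and 154 TPM and Sc5d 150.1, 256, 96.3 and 189.8 TPM. A 2-fold range was seen for 15 of 20 genes, against 8.87% of all genes, for 4 with shNC 1 left out and for 1 with shNC 2 left out. The stretch before the Hmgcs1 start is shown because it holds a match to a sterol response element (SRE), CACCCCAC, and a CCAAT box, read as ATTGG on this strand, both in capitals.
Hmgcs1, chr13:119690201-119690350, plus strand: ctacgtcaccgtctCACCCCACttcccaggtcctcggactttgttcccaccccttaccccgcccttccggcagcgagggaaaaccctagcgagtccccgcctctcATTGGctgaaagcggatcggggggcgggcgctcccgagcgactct
The SRE letters were found in 2 of 15 windows of the list and in 2.86% of those of genes with at least 1 TPM. The CCAAT letters were found in 13 of 15 and in 39.6%.

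Bile acid genes and drug-metabolizing enzymes gave a mixed picture. Cyp7a1, the rate-limiting enzyme of bile acid synthesis, had 7.4, 22.3, 11.8 and 8.11 TPM, and Cyp7b1, of the alternative route, 160.4, 124, 208 and 86.7 TPM, with shNC 2 highest for the first and shNC 3 for the second. Baat, which conjugates bile acids, was steady at 100, 104, 101 and 93.99 TPM, and Slco1a1, an uptake transporter with male bias, was not, at 65.9, 49.3, 20.5 and 80.7 TPM. Cyp3a11 and Cyp2e1, monooxygenases abundant in mouse liver, had 2543, 2416, 1981 and 2968 TPM (Cyp3a11) and 1554, 965, 1661 and 1756 TPM (Cyp2e1). Cyp1a2, a pericentral monooxygenase, had 160.5, 146, 77.5 and 206 TPM and was lowest in shNC 3, and Sult1d1, a sulfotransferase, was the steadiest member at 52.3, 56.6, 60.02 and 55.2 TPM. On the TMM scale 21 and 21 of 47 drug metabolism genes were highest in shNC 1 and shNC 4, where 29.01 and 18.8% of all genes were, and in unscaled TPM 7 and 28 were.

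Cell cycle genes were transcribed in all 4 samples but took little of the total. The 3 proliferation lists, 137 genes, held 0.324, 0.404, 0.284 and 0.397% of TPM in shNC 1 to 4 (0.352 ± 0.0581%, SD, n = 4), a 1.42-fold range, and 135 of the genes had a mean of at least 1 TPM. Ccnd1, which encodes cyclin D1, had 76.7, 73.6, 57.5 and 74.2 TPM and was lowest in shNC 3. Its relative Ccnd3 had 37.2, 32.8, 53.5 and 39.2 TPM and the partner kinase Cdk4 54.1, 41.1, 42.6 and 47.8 TPM. Cdkn1a, which encodes the cycle inhibitor p21, had 42.2, 58, 81.4 and 78.01 TPM, lowest in shNC 1. E2f4, a factor that represses cycle genes at rest, was the steadiest of the G1 list at 13.5, 13.99, 14.3 and 13.2 TPM, and Myc had 2.74, 4.01, 4.66 and 2.93 TPM.

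DNA replication and mitosis ordered the samples differently. Replication genes held 0.0838, 0.0925, 0.111 and 0.125% of TPM, and 31 of 48 were highest in shNC 4, where 18.8% of all genes were. Pcna, the sliding clamp of DNA polymerase, had 80.4, 71.6, 112 and 122 TPM. Mcm6, a subunit of the replicative helicase, had 26.5, 23.8, 55.5 and 47.8 TPM, higher in shNC 3 and shNC 4 than in the other 2, and Mcm5, another subunit named after its values were seen, 27.2, 32.1, 41.9 and 46.5 TPM. Rrm2, Tyms and Rfc2, which supply nucleotides or load the clamp, had 46.5, 53.3, 53.2 and 72.2 TPM (Rrm2), 44.4, 57.7, 54.9 and 62.4 TPM (Tyms) and 43.5, 49.7, 60.2 and 60.8 TPM (Rfc2). Cdc6, which licenses origins, was the steadiest at 5.26, 4.8, 4.91 and 4.98 TPM.

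Most mitosis genes were highest in shNC 2 and lowest in shNC 3. They held 0.203, 0.273, 0.131 and 0.2295% of TPM, with 46 of 62 highest in shNC 2, where 25.9% of all genes were, and 57 lowest in shNC 3, where 30.7% were. A 2-fold range was seen for 23 of 62, against 8.87% of all genes. With shNC 3 left out, a setting chosen after the values were seen, 3 of 62 had one, and with shNC 2 left out 11 did. Cdc20, which activates the anaphase-promoting complex, had 108, 176, 49.9 and 103 TPM. Ccnb2, cyclin B2, had 72.4, 102, 23.2 and 69.9 TPM, the largest SD of the list, and Ccnb1, named after its values were seen, 45.7, 83.03, 23.8 and 60.8 TPM. Stmn1, a microtubule regulator and the most abundant member, had 310.2, 342, 141 and 286 TPM, and Ube2c, which tags mitotic proteins for destruction, 153, 179, 88.9 and 160.4 TPM. Cdk1, the kinase that drives mitosis, had 117, 157, 111 and 179 TPM, and was highest in shNC 4. Mki67, the common marker of cycling cells, had 7.34, 13.7, 7.54 and 12.8 TPM, and Top2a, a DNA topoisomerase, 28.7, 29.3, 25.5 and 32.5 TPM, a narrow range. Pttg1, which encodes securin, was the steadiest member at 46.7, 41.9, 38.2 and 39.8 TPM.

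The summed TPM of the mitosis list was 2.42, 2.95, 1.18 and 1.84 times that of the replication list in shNC 1 to 4. The lowest ratio, in shNC 3, came with a replication share of 0.111%, the second highest of the 4. Median log2 deviations of the mitosis genes from their own means, on the TMM scale, were 0.04, 0.35, -0.53 and 0.15, and those of the replication genes -0.12, -0.10, 0.00 and 0.23. Over all genes of at least 1 TPM they were 0.01, 0.00, -0.01 and 0.00. Whether the samples were taken at different points of the division wave was not tested.

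**Figure D3:**
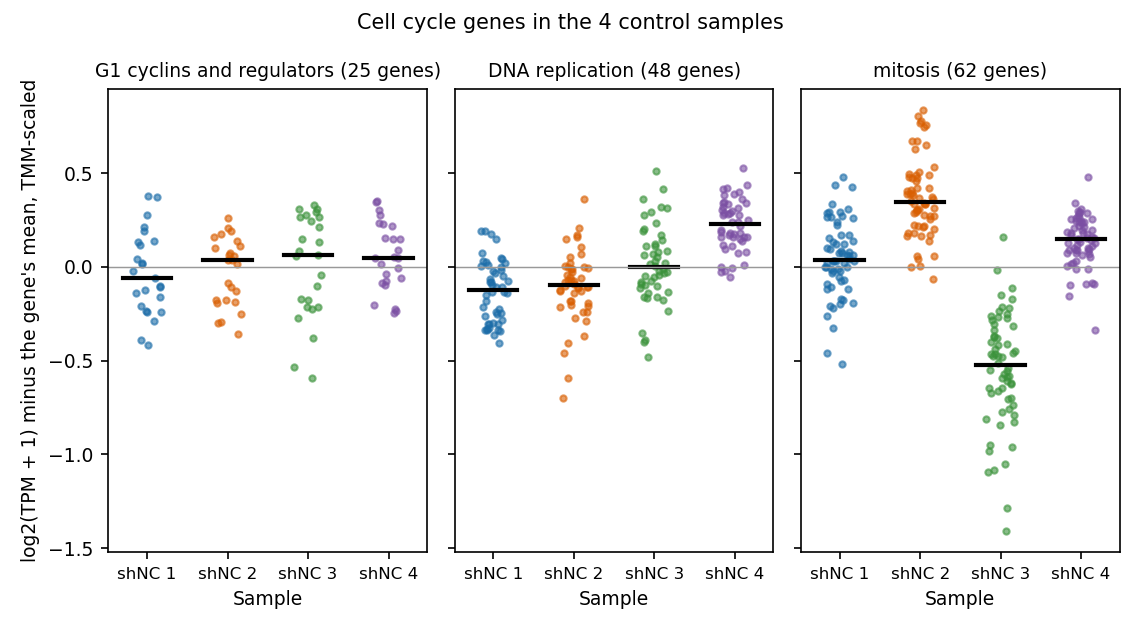
Deviation of log2(TPM + 1) from each gene's mean over 4 samples, TMM-scaled (vertical), for genes of at least 1 TPM in the G1, replication and mitosis lists (panels), by sample (horizontal). Each point is a gene and each black bar the median. Mitosis medians run from -0.53 in shNC 3 to 0.35 in shNC 2, and replication medians from -0.12 in shNC 1 to 0.23 in shNC 4.

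Promoter stretches of 2 mitosis genes are shown because they hold CCAAT boxes and a cell cycle homology region (CHR), TTTGAA or TTTAAA, which are known elements of genes expressed late in the cycle. Capitals mark CCAAT or ATTGG and the CHR on either strand.
Cdc20, chr4:118437344-118437423, minus strand: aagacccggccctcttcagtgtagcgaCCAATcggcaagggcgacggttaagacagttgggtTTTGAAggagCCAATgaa
Ube2c, chr2:164769829-164769928, plus strand: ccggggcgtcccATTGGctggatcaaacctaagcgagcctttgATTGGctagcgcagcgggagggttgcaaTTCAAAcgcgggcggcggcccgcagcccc
Both motifs were found in 32 of 50 mitosis windows (64%), against 17.1% of 41 replication windows and 7.84% of those of genes with at least 1 TPM. Of mitosis genes, 12 had no usable window.

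Promoter stretches of 2 helicase genes are shown because they hold the site letters of the E2F family, TTTGGCGC or TTTCCCGC in either direction, in capitals.
Mcm6, chr1:128359706-128359825, minus strand: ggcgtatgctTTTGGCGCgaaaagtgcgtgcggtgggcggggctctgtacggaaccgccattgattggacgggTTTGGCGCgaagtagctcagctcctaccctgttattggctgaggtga
Mcm5, chr8:75109349-75109508, plus strand: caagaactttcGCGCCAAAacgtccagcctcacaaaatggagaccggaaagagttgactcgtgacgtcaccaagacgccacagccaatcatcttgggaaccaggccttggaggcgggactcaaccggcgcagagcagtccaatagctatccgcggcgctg
The E2F letters were found in 11 of 41 replication windows (26.8%), in 8% of mitosis windows and in 3.26% of those of genes with at least 1 TPM. No E2F letters in a window says only that these letters are not in it.

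Ligand genes of hepatocyte growth and the receptor gene Met were low to moderate. The receptor gene Egfr was above 100 TPM in every sample, a level that 1054 to 1137 genes per sample reached. Hgf, hepatocyte growth factor, had 3.4, 5.34, 8.48 and 5.63 TPM, and its receptor Met was steady at 9.81, 10.8, 10.1 and 10.1 TPM. Egfr, the epidermal growth factor receptor, had 107, 135, 106 and 118 TPM, and its ligand gene Tgfa 6.62, 6.26, 9.14 and 6.6 TPM. Fgf1 and Vegfa, a fibroblast and an endothelial growth factor, had 26.5, 35.03, 49.7 and 40.03 TPM (Fgf1) and 25.8, 30.8, 33.1 and 28.2 TPM (Vegfa). Hgf, Tgfa, Fgf1 and Vegfa were each highest in shNC 3. Of the immediate early factors, Egr1 had 18.9, 26.6, 40.7 and 9.34 TPM, Junb 30.6, 19.4, 52.6 and 30.5 TPM, Jun 25.7, 23.04, 18.6 and 21.9 TPM and Jund 95.2, 78.9, 59.9 and 71.8 TPM.

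Chaperone and interferon response genes were mostly highest in shNC 3. Of 19 chaperone genes of the endoplasmic reticulum, 14 were highest in shNC 3, where 26.2% of all genes were. Hspa5, its main chaperone, had 664, 794, 926 and 713 TPM, Calr 514, 608, 1009 and 586 TPM and Creld2 69.4, 67.96, 171 and 81.2 TPM. Of 18 interferon response genes, 14 were highest there, among them Isg15 at 18.8, 20.6, 49.4 and 21.2 TPM and Oasl2 at 1.64, 1.54, 6.49 and 2.66 TPM. The summed share of the interferon list was 0.338, 0.280, 0.322 and 0.287% of TPM in shNC 1 to 4, highest in shNC 1. Cytosolic heat shock genes were lowest in shNC 2 for 12 of 14, where 23.9% of all genes were, with Hspa8 at 1171, 777, 1206 and 1173 TPM, while the inducible Hspa1b, at 11.3, 4.29, 15.1 and 33.5 TPM, was highest in shNC 4. Cebpb and Ppara, factors of the stressed and the fasted liver, had 81.6, 67.2, 186 and 114 TPM (Cebpb) and 20.9, 20.5, 50.6 and 41.9 TPM (Ppara), and Hnf4a, the master factor of hepatocyte identity, 101, 152, 145 and 150.3 TPM.

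Afp, alpha-fetoprotein of the fetal liver, had 4.26, 5.05, 11.5 and 4.59 TPM, so it was listed in all 4 samples at a level far below Alb. Replication-dependent histone genes were low, since 18 of 67 had a mean of at least 1 TPM. The most abundant were Hist1h2bc at 203, 154, 174 and 166 TPM and Hist1h1c at 116, 111, 79.3 and 80.7 TPM. Many such transcripts lack a poly(A) tail, and whether the library kit selected for it is not given in the sources used here. Clock genes stood at 14.8, 7.65, 17.9 and 18.5 TPM for Nr1d1, 9.65, 3.26, 4.8 and 8.95 TPM for Dbp and 8, 10.1, 12.3 and 7.29 TPM for Arntl, and the time of day of collection is not given.

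**Figure D4:**
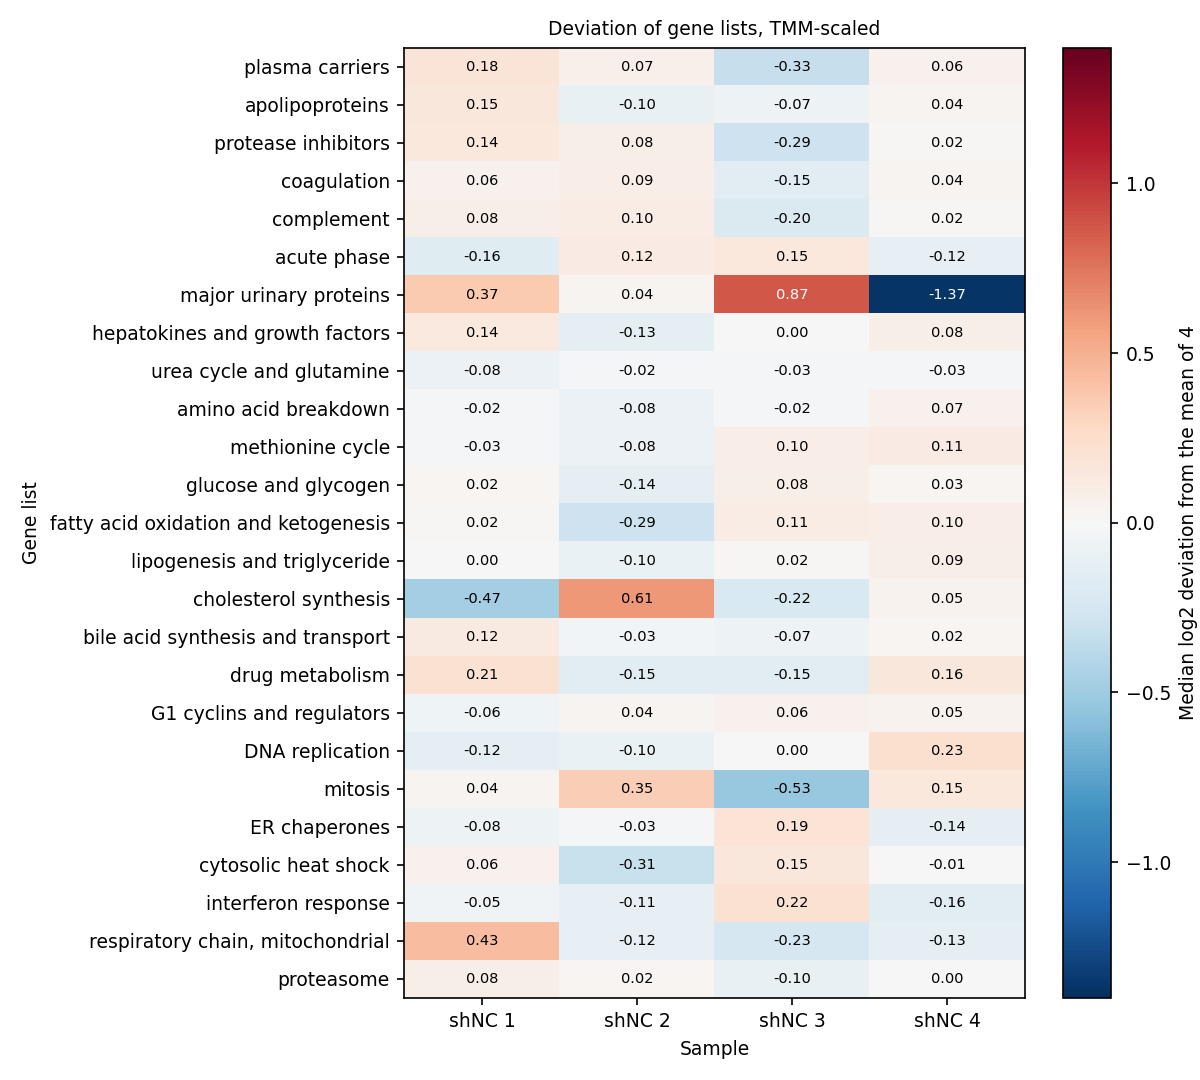
Median log2 deviation of each gene list from its genes' own 4-sample means, TMM-scaled, by sample, with red above and blue below. Major urinary proteins run from -1.37 in shNC 4 to 0.87 in shNC 3, cholesterol synthesis from -0.47 to 0.61, and the proteasome stays between -0.10 and 0.08.

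Hepatocyte markers led and markers of other cells were far lower. Hepatocyte markers held 5.68, 5.74, 4.96 and 5.88% of TPM, against 0.0917, 0.0761, 0.0886 and 0.0657% for Kupffer cells and macrophages, 0.0168, 0.0202, 0.0205 and 0.0198% for sinusoidal endothelium and 0.01796, 0.0169, 0.0274 and 0.0236% for stellate cells. Alb is among the 12 hepatocyte markers and weighs most in their share. Median log2 deviations of the 12, on the TMM scale, were 0.17, -0.13, -0.02 and 0.04 in shNC 1 to 4. Cd5l and Marco of Kupffer cells had 195, 169.8, 151 and 134 TPM (Cd5l) and 70.3, 67.7, 64.8 and 35.5 TPM (Marco), and Dnase1l3 and Stab2 of sinusoidal endothelium 14.9, 14.9, 14.6 and 15.5 TPM (Dnase1l3) and 9.88, 12.9, 13.2 and 14.2 TPM (Stab2). Monocyte markers held 0.00334, 0.00307, 0.00646 and 0.00327% of TPM, with Plac8 at 27.8, 24.6, 41.4 and 26.4 TPM and Chil3 at 0.39, 0.55, 7.64 and 0.28 TPM. In shNC 3 these, the bile duct gene Spp1 at 35.4, 26.5, 116 and 21.8 TPM and the collagen gene Col3a1 at 27, 15.7, 43.4 and 31.5 TPM were highest. Their part in the other differences of shNC 3 was not tested. Hemoglobin genes of red blood cells were highest in shNC 2, with Hba-a2 at 654, 1749.8, 566 and 1237 TPM and Hbb-bs at 589, 1731, 611 and 1219.9 TPM, and the list held 0.167, 0.461, 0.157 and 0.324% of TPM. Mesothelial markers held 0.000278, 0.000116, 0.000924 and 0.000706%, highest in shNC 3. The part of blood or capsule in other results was not tested. The neutrophil gene S100a9, at 4.99, 21.6, 12.96 and 8.21 TPM, was also highest in shNC 2. The muscle gene Myh4 and the pancreas genes Prss1 and Cpa1 were at 0 in all 4 samples, whereas Cela1, an elastase of the same list, had 49.2, 48.5, 59.4 and 69.98 TPM.

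The 4 samples resembled each other across most genes. The median SD of log2(TPM + 1) was 0.197 over 12058 genes, and 1069 genes, 8.87%, had a 2-fold range on the scale of TPM plus 1. Pearson correlations of log2(TPM + 1) across these genes were 0.971 to 0.981 for the 6 pairs of samples, where genes are not independent. The pair shNC 1 and shNC 3 had 580 genes at least 2-fold apart and the pair shNC 2 and shNC 4 had 246. The biological coefficient of variation that edgeR estimated was 18.3%, and 15.8% without shNC 3, 18.4% without shNC 1, 18.6% without shNC 2 and 20.2% without shNC 4. Without shNC 3 the genes with a 2-fold range numbered 549, and without shNC 1 680.

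The proteasome and ribosome genes named here include the least variable of each list, so they do not stand for the whole. Psmb2 and Psma3, subunits of the proteasome, had 127, 128, 129 and 127 TPM (Psmb2) and 232, 234, 236 and 229 TPM (Psma3), and Rps27a, a ubiquitin and ribosome fusion gene, 591, 580.2, 587 and 576 TPM. How even a gene looks depends on the scaling: TMM-scaled values ran from 119.8 to 141 for Psmb2, from 471 to 565 for Igf1 and from 628 to 761 for Cfb. Of 37 proteasome genes, 80 cytosolic ribosomal protein genes and 24 ribosome biogenesis genes, 0 had a 2-fold range, against 8.87% of all genes. Ribosomal proteins held 5.97, 6.43, 7.16 and 6.54% of TPM, and 63 of 80 were highest in shNC 3 in TPM and 30 after TMM scaling. The share was 0.396, 0.422, 0.423 and 0.426% for the proteasome and 3.18, 3.31, 3.32 and 3.41% for nuclear genes of the respiratory chain. Mitochondrially encoded respiratory genes, at 15.7, 11.98, 11.2 and 12.2%, differed from the nuclear ones in order, and 13 of 13 were highest in shNC 1, where 29.01% of all genes were.

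Several genes with a wide spread were high or low in 1 sample. In shNC 3, Sult1e1, a sulfotransferase of estrogens, was highest at 0.17, 1.46, 20.95 and 0.53 TPM, and Akr1b7, an aldo-keto reductase, was too, at 0.52, 1.25, 19.1 and 0.77 TPM. Inmt, a methyltransferase, and Hsd17b6, a steroid dehydrogenase, were lowest there, at 214, 122, 17.2 and 314 TPM (Inmt) and 115, 39.2, 6.29 and 84.5 TPM (Hsd17b6). In shNC 4, Cyp26a1 and Cyp26b1, which break down retinoic acid, were highest at 3.01, 4.19, 2.47 and 33.5 TPM (Cyp26a1) and 1.88, 4.93, 8.06 and 18.1 TPM (Cyp26b1), and Moxd1, a monooxygenase-like gene, lowest at 5.37, 7.54, 8.52 and 0.16 TPM. G0s2, an inhibitor of triglyceride breakdown, and Cxcl1, a chemokine, were lowest in shNC 2, at 107, 41.7, 277 and 149 TPM (G0s2) and 18.9, 8.95, 51.8 and 31.4 TPM (Cxcl1). Mfsd2a, a lysolipid transporter, had 4.83, 12.2, 65.6 and 57.97 TPM, low in shNC 1 and shNC 2.

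Metallothioneins, small proteins that bind zinc and copper, were low in shNC 1. Mt2 had 83.7, 751, 1306 and 1076 TPM, a 15.4-fold range on the TPM plus 1 scale that was 1.74-fold without shNC 1, and its neighbour Mt1, named after its values were seen, 267, 1678, 1432 and 1217 TPM. Mt2 rests on 549, 4998, 7772 and 6647 counts in shNC 1 to 4 and Mt1 on 2119, 12931, 10268 and 9000 counts. Mt1 lies at chr8:94179082-94180327 and Mt2 at chr8:94172664-94173568 on mm10, both on the plus strand. Stretches before both RefSeq starts are shown because they hold matches to the core of the metal response element (MRE), TGCGCNC or TGCACNC, in capitals on either strand.
Mt1, chr8:94178929-94179088, plus strand: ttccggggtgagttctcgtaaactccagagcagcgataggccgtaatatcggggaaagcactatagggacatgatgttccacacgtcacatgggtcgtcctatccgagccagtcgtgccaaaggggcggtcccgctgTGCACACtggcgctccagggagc
Mt2, chr8:94172478-94172617, plus strand: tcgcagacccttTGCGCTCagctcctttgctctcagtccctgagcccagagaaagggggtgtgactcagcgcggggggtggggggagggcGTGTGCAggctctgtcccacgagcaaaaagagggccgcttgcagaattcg
These short letters occur in 36.1% of windows of genes with at least 1 TPM, so their presence alone is common.

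**Figure D5:**
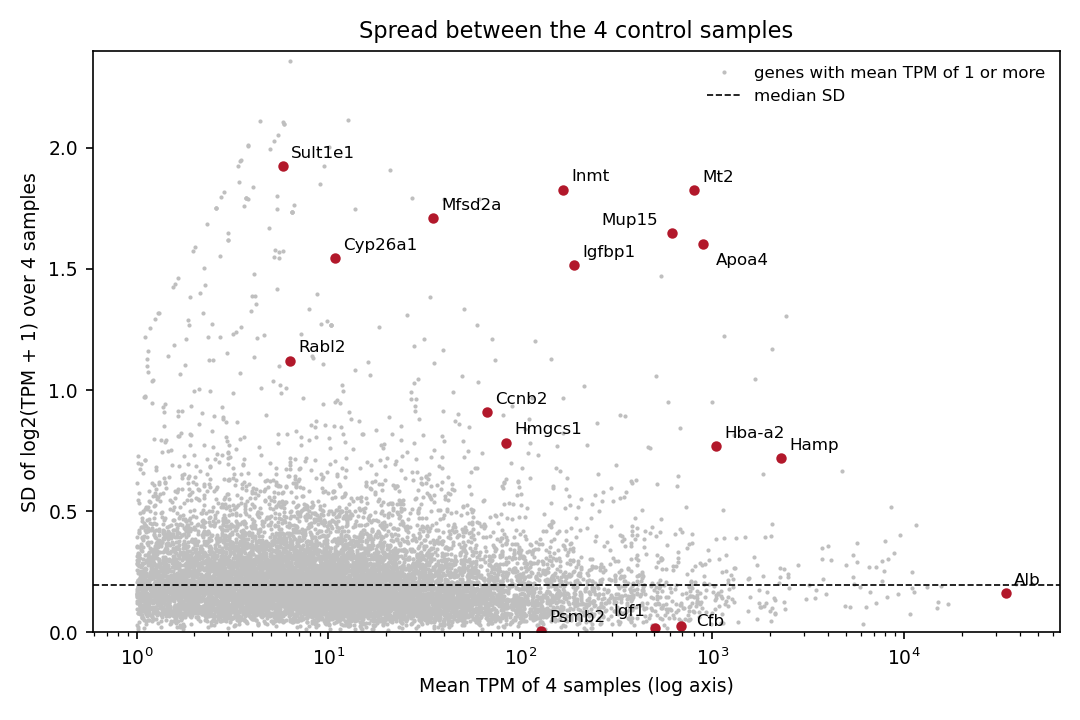
SD of log2(TPM + 1) over 4 samples (vertical) against mean TPM (horizontal, log axis) for genes of at least 1 TPM in grey, with 17 named genes in red and a dashed line at the median SD. The 7 genes with an SD above 2.4 are outside the plot. Psmb2, Igf1 and Cfb lie at the bottom, and Sult1e1, Inmt, Mt2, Mup15, Apoa4 and Igfbp1 lie at SDs of 1.52 to 1.92.

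Some of the widest spreads belonged to genes with few fragments or with unlike effective lengths. Of the 1069 genes with a 2-fold range, 137 had effective lengths that ranged 1.5-fold or more, and 219 had CPM, expected counts scaled to a common total, within 1.5-fold. Of the 20 most variable genes of at least 5 TPM, 10 were not protein-coding and 10 had an effective length under 100 bases. Bc1, a short neuronal RNA, had 0, 70.6, 24.1 and 73.7 TPM from 0, 4, 1 and 4 counts, and Snhg9 0, 8.76, 12.1 and 0 TPM from 0, 1, 1 and 0 counts, so both rest on a handful of fragments. Rmrp and Rn7sk, RNAs of RNA processing and of transcription control, were highest in shNC 2 at 3.63, 68.3, 2.84 and 9.23 TPM (Rmrp) and 16.8, 126, 9.73 and 7.17 TPM (Rn7sk), and small RNA classes together held 0.148, 0.728, 0.159 and 0.156% of TPM. Rabl2 had 16.5, 2.17, 3.56 and 2.84 TPM but 50, 63, 87 and 70 counts, with effective lengths of 127, 1226, 1113 and 1109 bases. Pagr1a had 11.2, 8.21, 0.22 and 1.44 TPM and effective lengths of 1035, 497, 318 and 216 bases. Nnt, a mitochondrial transhydrogenase gene, is listed under 2 identifiers with 8.37, 15.5, 10.9 and 21.6 TPM and 10.7, 2.66, 7.53 and 1.22 TPM, and their sum was steadier, at 19.1, 18.2, 18.4 and 22.8 TPM.

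Tbl1xr1, the gene the series is about, was measured in all 4 controls. It had 4.93, 12.7, 10 and 10.4 TPM, lowest in shNC 1, from 759, 1098, 1014 and 1016 counts with effective lengths of 6440.4, 3659, 4617 and 4414 bases. The counts ranged 1.45-fold and the TPM, with 1 added, 2.31-fold, or 1.24-fold without shNC 1.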

How the data were processed

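RNA of 4 control liver samples (shNC-D2) was analysed, and the other samples of the series were not used. Per the labels, total RNA was extracted with TRIzol and libraries were made with an MGIEasy kit. Tools in the submitters' processing notes are STAR, RSEM and DESeq2 1.30.1, with mm10 as the build and no options. Which annotation release and strand setting were used is not given here. The authors deposited, per the file headers, 1 table per sample with 55401 genes and with an expected count (RSEM's estimate, not always whole), an effective length and TPM, the count per effective length scaled to 1000000 per sample.

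Symbols and positions came from GENCODE release M21 on GRCm38, where 55141 identifiers matched. From the deposited TPM, means, SDs, shares of TPM per list, log2(TPM + 1) and the highest-to-lowest fold on the TPM plus 1 scale were computed with pandas 2.3.3. TMM factors and the coefficient of variation came from edgeR 4.0.16 and median-of-ratios factors from DESeq2 1.42.0, on expected counts rounded to whole numbers, in R 4.3.3. The dispersion step was tested on simulated data. With 1 group of 4, no groups were compared and no p-value is given; single samples were set against Dixon's critical value for 4.

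Genes were named by rule: the top 25 by mean TPM, up to 4 most abundant and the most and least variable members per list, the 20 most variable of at least 5 TPM, the 5 farthest above and below per sample, and a fixed set of liver and cycle genes. Mt1, Mcm5, Ccnb1, the genes whose promoters are shown and the motifs were taken after values were seen. The 40 gene lists and 15 marker lists, of which 1 member was not found, were chosen with earlier results of these data known. A few named genes are not reported here. Counts per list with 1 sample left out were added after the values were seen. Promoter sequences are RefSeq's on GRCm38.p6, 1 window per gene, 250 bases before and 50 after the start. Totals of 25811763 to 27537235 counts limit precision least for abundant genes.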

Additional observations from a re-analysis of the deposited data

Results flagged for a closer look

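A sample was singled out where its gap to the nearest other sample, divided by the range of the 4, was above Dixon's 95% critical value for 4 samples. The values were taken without TMM scaling, and the step was not repeated with it. For values not chosen for their spread, chance gives about 1 in 20 such cases. They arose for 6 of 53 lists, 25 of 177 genes and 0 of 5 sample-level results. Many of the genes were named because they varied or stood apart in 1 sample, so their number is not to be read against that rate. The lists were chosen with earlier results of these data known and share the same 4 samples. Their number is not to be read against that rate either.

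Sample shNC 3 was the highest in 16 cases. Among lists, fetal liver genes had 0.00216% of TPM against 0.000925% to 0.001095%, bile duct markers 0.0135% of TPM against 0.00347% to 0.00484% and monocyte markers 0.00646% of TPM against 0.00307% to 0.00334%. Among secreted and metabolic genes these were Apoa4 at 2705 TPM against 285 to 300, Orm3 at 27.4 TPM against 3.25 to 5.29, Serpina3k at 10966 TPM against 7048 to 7705 and G6pc at 339 TPM against 182 to 188. Others were Sult1e1 at 20.95 TPM against 0.17 to 1.46, Akr1b7 at 19.1 TPM against 0.52 to 1.25, Creld2 at 171 TPM against 67.96 to 81.2, Isg15 at 49.4 TPM against 18.8 to 21.2, Tgfa at 9.14 TPM against 6.26 to 6.62 and Afp at 11.5 TPM against 4.26 to 5.05. Markers of other cells were Chil3 at 7.64 TPM against 0.28 to 0.55 and Spp1 at 116 TPM against 21.8 to 35.4. Spp1 is on the bile duct list and held 115.87 of its 134.57 TPM in shNC 3, so gene and list are not separate cases. Of 10 bile duct markers and 10 fetal liver genes, 4 and 3 had a mean of at least 1 TPM. Xist was listed at 0.01 TPM in shNC 3 and at 0 elsewhere, which is no detectable level. Ccnd1 was low in shNC 3, at 57.5 TPM against 73.6 to 76.7.

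Sample shNC 1 was high for mt-Co2 at 12125 TPM against 7402 to 7905, mt-Co3 at 9460 TPM against 6816 to 7234, Mup3 at 8543 TPM against 5675 to 6068 and Rabl2 at 16.5 TPM against 2.17 to 3.56, the last of which has an effective length unlike that of the others. It was low for Hnf4a at 101 TPM against 145 to 152, for ribosome biogenesis (0.0538% of TPM against 0.0586% to 0.0594%) and for the proteasome (0.396% of TPM against 0.422% to 0.426%), while TMM-scaled median log2 deviations in it were 0.03 and 0.08.

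Sample shNC 2 was high for Rn7sk at 126 TPM against 7.17 to 16.8, Rmrp at 68.3 TPM against 2.84 to 9.23 and Eif2s3y at 26.4 TPM against 23.9 to 24.1, the last of which was highest in shNC 1 after TMM scaling. It was low for Hspa8 at 777 TPM against 1171 to 1206 and for fatty acid oxidation (1.26% of TPM against 1.602% to 1.67%). The fatty acid oxidation share passed the critical value only narrowly. It is a sum in which the most abundant members weigh most, and the flag was not tested without them. Fabp1, the most abundant of the metabolic genes, was itself lowest in shNC 2. Sample shNC 4 was high for Cyp26a1 at 33.5 TPM against 2.47 to 4.19 and low for Marco at 35.5 TPM against 64.8 to 70.3. The cause of these differences was not tested.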

How the results depend on the processing

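No paired analysis was possible because 1 group of samples was described and nothing was compared with it. The number of genes holding 50% of TPM was 89.8 on average and 210.5 with CPM from expected counts, without length. The secreted share of 28.1% became 29.4% with CPM, 32.3% without mitochondrially encoded genes, 29.9% with protein-coding genes only and 24.7% without Alb. The metabolic share of 7.598% became 9.95%, 8.72% and, without Fabp1, 6.82%. The proliferation share of 0.352% became 0.527% with CPM. Genes with a 2-fold range numbered 1069 and 659 among genes of at least 5 TPM, where fewer genes are counted. With 1 sample left out there were 549 to 936: 549 without shNC 3 and 680 without shNC 1. TMM and median-of-ratios scaling gave 966 and 961. With 1 sample left out, detected genes averaged 11946 to 12080, genes holding 50% of TPM 83 to 97.3, the secreted share 27.6 to 28.4%, the metabolic share 7.42 to 7.797%, the proliferation share 0.335 to 0.375%, the median SD 0.1603 to 0.208 and the proliferation fold 1.25 to 1.42. Of 177 genes examined singly, 74 had a 2-fold range, and for 48 of these leaving out 1 sample brought it under 2-fold. Neither scaling moved a single gene's fold by over 1.5 times. With 4 samples, spread is known only roughly, and the cause of these shifts was not tested.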
